A study of Mus musculus with 7 samples.

Results

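Oxidative phosphorylation (OXPHOS) is carried out by 5 protein complexes of the inner mitochondrial membrane. Complexes I to IV pass electrons from NADH and succinate to oxygen and, complex II excepted, pump protons, and complex V, the ATP synthase, uses the returning protons to make ATP. Most subunits are encoded in the nucleus and imported, while a few core subunits of complexes I, III, IV and V come from mitochondrial DNA. In the liver this machinery also disposes of the electrons released when fatty acids are oxidized. The nuclear-encoded OXPHOS genes were examined in livers of WT and TET1 KO mice on a high-fat diet (HFD). They were chosen by symbol (the Nduf, Sdh, Uqcr, Cox4 to Cox8 and Atp5 families) and by having at least 10 counts in every library, which 94 of 105 matching genes did. These 94 stand among 51426 genes listed and 24623 with at least 1 count.

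All mice were male and labelled C57BL/6J. The diet, with 60% of its calories from fat, began at 8 weeks of age and lasted 16 weeks in both genotypes. There were 3 WT mice and 4 mice with a whole-body Tet1 knockout (TET-1-TKO in the labels, TET1 KO here). TET1 oxidizes methylated cytosine in DNA. The study writes the sequenced livers as TET1 wt/wt and TET1-/-, and its methods name a purchased TET1 KO stock with a mixed B6;129S4 background, while the labels give C57BL/6J. In such an animal the knockout applies to every tissue and not only to hepatocytes. The labels number the samples as replicates of hepatic tissue without stating pooling or the animal behind each, so p-values measure the spread between these 7 samples, called livers here.

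Library sizes ran from 15005277 to 22746138 counts, so that 1 CPM, the count scaled to library size, equalled 15.0 to 22.7 counts before normalization. Tet1 had 1, 4 and 1 counts in WT replicates 1 to 3 and 2, 1, 4 and 1 counts in TET1 KO replicates 1 to 4, so that its mRNA was near the floor in both genotypes (p = 1.0 in a two-sided exact permutation test over 35 splits of the livers, which can give no p below 0.0286). These Tet1 counts are too low in both genotypes to show the knockout. All 10 hepatocyte markers passed the filter on low counts, and their summed level lay between 72432 and 92384 CPM in the 7 livers. The 7 cholangiocyte markers summed to between 29.8 and 38.1 CPM in WT and between 46.4 and 68.5 CPM in TET1 KO. Spp1 gave most of each sum, with 29.1, 24.3 and 19.8 CPM in WT and 30.7, 43.7, 32.3 and 39.2 CPM in TET1 KO. The 5 cholangiocyte markers that were tested all had a log2 fold change above 0, with a median of 1.22. EdgeR called none of them, 4 had an unadjusted p under 0.05 (background 26.3% of all tested genes), and DESeq2 called 2, Sox9 and Epcam (background 9.14%). Epcam had 105 counts in TET1 KO replicate 4 and 5 to 16 in the other 6 livers, and Krt19 had 144 there and 15 to 33 in the others. Without that liver the log2 fold change of Epcam went from 2.09 to 0.89 and that of Krt19 from 1.48 to 0.43. The 7 red blood cell markers summed to between 778 and 871 CPM in WT and to 219, 489, 428 and 1114 CPM in TET1 KO replicates 1 to 4, below WT in all but replicate 4. All 6 of them that were tested had a log2 fold change below 0 (median -0.64), 2 with an unadjusted p under 0.05, and neither edgeR nor DESeq2 called any. The 8 stellate cell markers summed to between 242 and 389 CPM in WT and between 222 and 297 CPM in TET1 KO, and 7 of the 8 had a log2 fold change below 0. Rgs5 of that list was lower in TET1 KO (log2 fold change -0.67, adjusted p = 0.046 by edgeR, a call lost in 6 of the 7 fits that left out 1 liver, with adjusted p from 0.044 to 0.206), and DESeq2 called Col3a1 and Col1a1 lower as well. By DESeq2 alone, Apoa1 and Serpina1a among the hepatocyte markers were called higher, and Lyve1 among the 8 endothelial and Elovl3 among the 4 tested brown adipocyte markers lower. Bulk liver RNA cannot tell fewer cells of a type from less RNA per cell, and the part of these cells in the results below was not tested.

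None of the 94 OXPHOS genes was called different between the genotypes, where 2.02% of the 14754 tested genes were (adjusted p below 0.05, edgeR's quasi-likelihood test with Benjamini-Hochberg adjustment over all tested genes). DESeq2 called 5 members (background 9.14%), and edgeR without TET1 KO replicate 4 called 3 (background 6.18%). The log2 fold changes of TET1 KO against WT nevertheless leaned upward, with 70 of 94 above 0 and a median of 0.19, beside 51.1% above 0 and a median of 0.01 over all tested genes. The members' median was 0.10 without WT replicate 2, with scaling by library size only or with a trend in transcript length removed, and 0.32 without WT replicate 1. At an unadjusted p under 0.05, 29 members stood out (background 26.3%), 25 of them higher (background 13.6%) and 4 lower (background 12.7%). All 29 kept their sign without WT replicate 2 and without the trend with transcript GC content, but the log2 fold change shrank by over 1.5 times in 11 and in 9 of them. Of the 65 members with a larger p, 60 moved by over 1.5 times when 1 of the livers was left out, and 23 changed sign in at least 1 of 13 alternatives. At the looser adjusted p of 0.1, 8 passed (background 11.3%), of which 7 were higher (background 5.7%) and 1 was lower (background 5.59%). In 17 members the 2 genotypes did not overlap, or 18.1% against a background of 22.5%. All TET1 KO livers stood above all WT livers in 13 (background 11.7%) and below them in 4 (background 10.8%). The 95% interval of the fold change stayed within 2-fold in either direction for 85 members and within 1.5-fold for 43. The standard error (SE) of a member's log2 fold change had a median of 0.16.

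**Figure D1:**
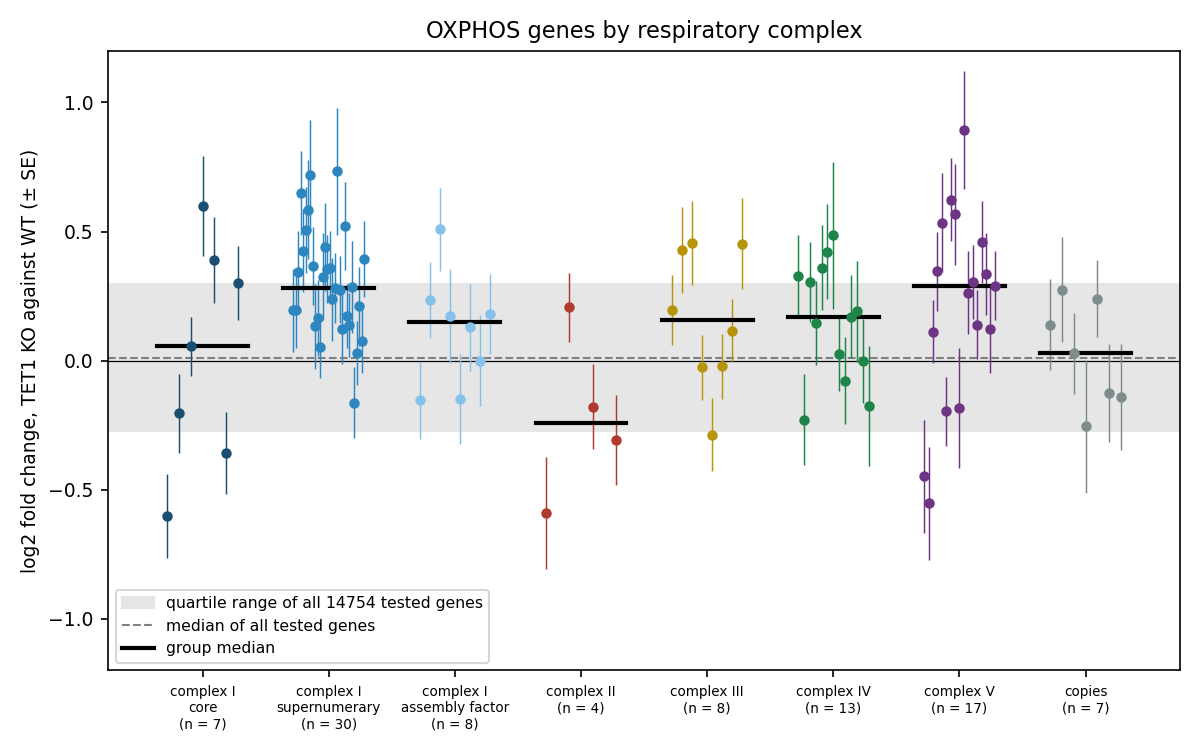
Log2 fold change of TET1 KO (n = 4) against WT (n = 3) for each of the 94 OXPHOS genes with its standard error, grouped by complex, on a vertical axis in log2 units. Black bars mark group medians (complex II -0.24, complex I supernumerary 0.28, complex V 0.29), and the grey band runs from the lower to the upper quartile of all tested genes.

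The shift was uneven between and within the complexes. The 30 supernumerary subunits of complex I, which surround its catalytic core, had a median log2 fold change of 0.28, with 29 above 0. The 17 genes of complex V had a median of 0.29, the 8 of complex III of 0.16, the 13 of complex IV of 0.17 and the 8 complex I assembly factors of 0.15. The median of the assembly factors was 0.05 without WT replicate 3, 0.06 with library size only and 0.07 without the length trend. The 7 core subunits of complex I, which carry the flavin and the iron-sulfur clusters, had a median of 0.06 and ran from -0.60 to 0.60. The core median turned to -0.04 with library size only, -0.01 without the length trend and -0.04 without the GC trend. The 4 genes of complex II had a median of -0.24, which was -0.13 without TET1 KO replicate 1. Without WT replicate 2 the medians were 0.17 for the supernumerary subunits, 0.02 for the core, 0.08 for complex III, 0.02 for complex IV and 0.18 for complex V, and removing the length trend took complex III to 0.00. The 7 pseudogenes and further gene copies that matched the rule had a median of 0.03. Such copies share sequence with their parent genes, so their counts are uncertain.

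To show the regulatory sequence beside the values, the bases before the transcription start were taken from RefSeq (GRCm38.p6, where the submitters' processing notes name GRCm38). Of the 87 members that are not copies, 74 matched that table by symbol. The 250 bases upstream of each start were searched on both strands for the letters of factors known from mitochondrial genes. The NRF1 letters, GCGCA and GCGC with any 1 base between, occurred upstream of 14 of the 74 genes (18.9%), beside 4.23% of all 27025 genes in the table. These 27025 were not limited to genes tested in these livers, while members needed counts in every library. The ETS letters CCGGAAG, read by GABPA, occurred in 18.9% of the members and 7.83% of all genes. The CCAAT box CCAAT occurred in 43.2% and 37.5%, the GC box GGGCGGG in 31.1% and 25.7%, and the E-box CACGTG in 8.11% and 6.86%. The YY1 letters AAGATGGC occurred in 1.35% of members and 1.83% of all genes, the ERR element TCAAGGTCA in 1.35% and 0.422%, and the PPAR motif, AGGTCA repeated after any 1 base, in no member and 0.0407% of all genes. These windows had a median GC content of 57.6% for the member starts and 52.4% for all starts. They end before the start, so letters at or after it, those of YY1 included, were not searched. The 14 members with NRF1 letters had a median log2 fold change of 0.17 and the 60 without of 0.24.

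Upstream sequences are given for 2 members with a negative and 2 with a positive log2 fold change, chosen after their values were seen, because the NRF1 letters occur on both sides. Capitals mark every match to the motifs above in either orientation, and each sequence ends at the base before the start. Sdha lies on the minus strand (chr13:74350241-74350490), Atp5b on the plus strand (chr10:128083057-128083306), Atp5h on the minus strand (chr11:115419920-115420169) and the outer of the 2 Ndufa5 starts on the minus strand (chr6:24527691-24527940).
Sdha: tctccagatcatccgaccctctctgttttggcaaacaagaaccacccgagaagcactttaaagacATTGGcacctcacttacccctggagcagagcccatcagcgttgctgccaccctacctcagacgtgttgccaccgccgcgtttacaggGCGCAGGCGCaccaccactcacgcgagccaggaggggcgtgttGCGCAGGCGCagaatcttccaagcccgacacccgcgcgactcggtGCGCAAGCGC
Atp5b: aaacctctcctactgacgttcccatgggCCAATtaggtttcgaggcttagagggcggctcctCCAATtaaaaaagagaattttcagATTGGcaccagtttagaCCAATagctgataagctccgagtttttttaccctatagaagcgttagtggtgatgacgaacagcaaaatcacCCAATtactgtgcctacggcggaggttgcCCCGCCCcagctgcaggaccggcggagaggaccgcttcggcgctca
Atp5h: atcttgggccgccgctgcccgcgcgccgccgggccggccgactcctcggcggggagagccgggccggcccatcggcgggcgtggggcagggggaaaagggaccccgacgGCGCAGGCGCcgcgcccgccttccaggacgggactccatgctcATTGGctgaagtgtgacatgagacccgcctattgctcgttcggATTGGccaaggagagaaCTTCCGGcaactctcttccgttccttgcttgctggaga
Ndufa5: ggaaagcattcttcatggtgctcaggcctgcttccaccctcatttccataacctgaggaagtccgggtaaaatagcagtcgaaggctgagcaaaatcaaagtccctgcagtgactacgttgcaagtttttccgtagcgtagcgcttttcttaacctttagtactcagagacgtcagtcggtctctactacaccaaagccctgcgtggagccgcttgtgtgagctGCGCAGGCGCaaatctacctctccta
The Sdha window holds 3 matches to the NRF1 letters, those of Atp5h and Ndufa5 hold 1 each, and that of Atp5b holds none but 5 CCAAT boxes. A match of letters is a description of the sequence and not a measured binding site.

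Complex I takes electrons from NADH. Its largest core subunit, Ndufs1, carries iron-sulfur clusters of the peripheral arm (ENSMUSG00000025968, chromosome 1 of GRCm38 from 63143592 to 63176822). Ndufs1 had 75.2, 110 and 76.0 CPM in WT replicates 1 to 3 and 49.9, 54.8, 62.4 and 62.6 CPM in TET1 KO replicates 1 to 4. All 4 TET1 KO livers were below the 3 WT livers, with WT replicate 2 well above the other two, and the log2 fold change was -0.60 (SE 0.16, adjusted p = 0.072 by edgeR). Ndufv1, which binds NADH and the flavin, also had all TET1 KO livers below WT, but only just. Its levels were 120, 140 and 124 CPM in WT and 75.7, 96.5, 107 and 120 CPM in TET1 KO, with a log2 fold change of -0.36 (SE 0.16, adjusted p = 0.183 by edgeR).

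Other core subunits of the same arm lay the other way. Ndufs7, which holds the last iron-sulfur cluster before ubiquinone, had 79.6, 52.0 and 65.0 CPM in WT and 130, 90.4, 96.4 and 80.3 CPM in TET1 KO. The lowest TET1 KO liver, replicate 4, was barely above WT replicate 1, and the log2 fold change was 0.60 (SE 0.19, adjusted p = 0.097 by edgeR). Ndufs8, a further iron-sulfur subunit, had a log2 fold change of 0.39 (SE 0.17, adjusted p = 0.168 by edgeR), which was 0.24 without WT replicate 2. Without the GC trend Ndufs7 stood at 0.35 and Ndufs8 at 0.19. Ndufs3 was nearly level, at 59.5 ± 2.66 CPM in WT (SD, n = 3) and 61.9 ± 3.03 CPM in TET1 KO (SD, n = 4), and the 95% interval of its log2 fold change ran from -0.20 to 0.31.

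Among the supernumerary subunits, Ndufa12 had the smallest p of all 94 members. It binds the peripheral arm late in assembly. Its levels were 51.7, 35.6 and 43.8 CPM in WT and 76.3, 70.3, 72.1 and 55.4 CPM in TET1 KO, with no overlap between the genotypes. The log2 fold change was 0.65 (SE 0.16, adjusted p = 0.063 by edgeR). Ndufa5, another subunit of the peripheral arm, had 100, 60.5 and 74.0 CPM in WT and 170, 109, 131 and 104 CPM in TET1 KO, where replicate 4 was again closest to WT and replicate 1 farthest. Its log2 fold change was 0.72 (SE 0.21, adjusted p = 0.083 by edgeR). Ndufb7, of the membrane arm, overlapped between genotypes by a narrow margin and had a log2 fold change of 0.52 (SE 0.17, adjusted p = 0.098 by edgeR), which was 0.28 without the GC trend. Ndufs4, whose loss in mice causes a Leigh-like encephalopathy, showed no difference that could be resolved, with a log2 fold change of 0.03 and a 95% interval from -0.24 to 0.30.

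The assembly factors of complex I help to build it and are not part of the finished enzyme. Ndufaf3 had 12.8, 9.74 and 12.5 CPM in WT and 15.0, 18.8, 17.6 and 14.9 CPM in TET1 KO, which do not overlap. Its log2 fold change was 0.51 (SE 0.16, adjusted p = 0.094 by edgeR). Without the GC trend it was 0.28. Ndufaf2 and Ndufaf8 had log2 fold changes of 0.23 and 0.18. Ndufaf2 stood at 0.15 without WT replicate 2 and at 0.13 without the length trend, and Ndufaf8 at 0.08 without TET1 KO replicate 1 and at 0.03 without the GC trend. The log2 fold change of Ndufaf7, a methyltransferase, was 0.00 with a 95% interval from -0.39 to 0.39.

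Complex II, succinate dehydrogenase, is encoded wholly in the nucleus and also takes part in the citric acid cycle. Its flavoprotein Sdha (ENSMUSG00000021577, chromosome 13 from 74322255 to 74350240) had 257, 445 and 291 CPM in WT and 169, 220, 211 and 280 CPM in TET1 KO. WT replicate 2 was far above the rest, while TET1 KO replicate 4 lay between WT replicates 1 and 3. The log2 fold change was -0.59 (SE 0.22, adjusted p = 0.125 by edgeR), and -0.32 without WT replicate 2. Its iron-sulfur partner Sdhb had 224, 181 and 187 CPM in WT and 248, 210, 229 and 223 CPM in TET1 KO, a log2 fold change of 0.21 (SE 0.13, adjusted p = 0.342 by edgeR), or 0.08 without the GC trend and 0.11 with library size only. The membrane anchors Sdhc and Sdhd had log2 fold changes of -0.18 (SE 0.16) and -0.31 (SE 0.17). Without TET1 KO replicate 1 Sdhc stood at -0.06, and without WT replicate 2 Sdhd stood at -0.17.

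Complex III hands electrons from ubiquinol to cytochrome c. Small subunits of it had the largest positive values, with log2 fold changes of 0.46 for Uqcrb (SE 0.16, adjusted p = 0.118 by edgeR), 0.45 for Uqcrq and 0.43 for Uqcr11. In each of these, WT replicate 1 overlapped the lowest TET1 KO liver. Without WT replicate 2, Uqcrq stood at 0.30 and Uqcr11 at 0.28, and without the GC trend Uqcr11 stood at 0.20. Uqcrq had 451, 288 and 359 CPM in WT and 522, 531, 515 and 436 CPM in TET1 KO. The Rieske iron-sulfur protein Uqcrfs1 was level, at 196 ± 16.8 CPM in WT (SD, n = 3) and 193 ± 10.8 CPM in TET1 KO (SD, n = 4). The core protein Uqcrc2 had all 4 TET1 KO livers below WT, at 143, 188, 178 and 185 CPM against 209, 231 and 195 CPM, with a log2 fold change of -0.29 (SE 0.14, adjusted p = 0.216 by edgeR).

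Complex IV, cytochrome c oxidase, reduces oxygen. The genotypes overlapped in all 13 of its members, against a background of 22.5% of tested genes without overlap. The largest values among its ubiquitous subunits were those of Cox6c (log2 fold change 0.42, SE 0.18, adjusted p = 0.174 by edgeR, and 0.27 without WT replicate 2), Cox6b1 (0.36) and Cox4i1 (0.33). Several of its subunits exist as isoforms that differ between tissues. Cox4i1 was present at 480 ± 77.6 CPM in WT (SD, n = 3), while Cox4i2, a lung isoform, had 0 to 2 counts in any library. Cox6a1 had 262 ± 59.2 CPM in WT (SD, n = 3), while the heart and muscle isoform Cox6a2 had 0 to 2 counts. Cox8a had 170 ± 29.2 CPM in WT (SD, n = 3) and 169 ± 24.4 CPM in TET1 KO (SD, n = 4), a log2 fold change of 0.00 with a 95% interval from -0.36 to 0.36. Cox8b, the heart and muscle isoform that brown fat also expresses, had 69 counts in TET1 KO replicate 2 and 0 to 4 counts in the other 6 livers. Ucp1, the uncoupling protein that defines brown adipocytes, had 264 counts in that liver and 0 in the other 6. The general adipocyte genes Adipoq and Plin1 had 60 and 70 counts there and 0 to 9 counts in the others, and these 3 genes were picked out after their values were seen. The 7 brown adipocyte markers as a list summed to 82.6 CPM in TET1 KO replicate 2 and to between 32.9 and 88.0 CPM in the other livers. Elovl3 of that list, which the liver also expresses, had 38.4 CPM there and 18.7 to 66.8 CPM in the others, and Dio2 had 3 counts there and 0 in the others. Cidea of that list was not highest there, with 95 counts (6.69 CPM) against 176 and 273 counts (8.66 and 11.3 CPM) in WT replicates 1 and 2, and neither was Lep of the white adipocyte markers, with 6 counts against 17 in WT replicate 2. The 6 white adipocyte markers summed to 71.4 CPM there, against 8.20 to 25.2 CPM in the others, and the 8 striated muscle markers to 0.42 CPM, against 0.13 to 0.44 CPM. The part of these cells in the Cox8b counts was not tested, and without this liver no member was called and the median log2 fold change of the members was 0.19.

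The Cox7a family had 3 members. Cox7a1, the heart and muscle form, was near the minimum at 3.0, 1.74 and 2.10 CPM in WT and 3.82, 4.09, 2.51 and 2.46 CPM in TET1 KO. The liver form Cox7a2 had 145 ± 15.8 CPM in WT (SD, n = 3) and 147 ± 18.0 CPM in TET1 KO (SD, n = 4). Cox7a2l had a log2 fold change of -0.08 (SE 0.17). Ndufa4, named for complex I but now placed in complex IV, had 303, 261 and 287 CPM in WT and 139, 276, 287 and 303 CPM in TET1 KO. TET1 KO replicate 1 stood alone and low, and the other 3 stood level with WT.

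Complex V, the ATP synthase, held members far to either side of 0. Atp5h, the d subunit of the peripheral stalk (ENSMUSG00000034566, chromosome 11 from 115415691 to 115419919), had 89.3, 53.3 and 76.6 CPM in WT and 190, 125, 127 and 102 CPM in TET1 KO. The genotypes did not overlap, TET1 KO replicate 1 was the highest, and the log2 fold change of 0.89 was the largest of all members (SE 0.23, adjusted p = 0.066 by edgeR). The catalytic β subunit Atp5b had 629, 918 and 712 CPM in WT and 350, 512, 542 and 649 CPM in TET1 KO. Here TET1 KO replicate 1 was the lowest, replicate 4 overlapped WT replicate 1, and the log2 fold change was -0.55 (SE 0.22, adjusted p = 0.145 by edgeR). Its partner in the F1 head, the α subunit Atp5a1, had a log2 fold change of -0.45 (SE 0.22, adjusted p = 0.216 by edgeR). Per kilobase of coding sequence α and β stood at similar levels in WT, 466 and 473 CPM per kb, and in TET1 KO, 341 and 323 CPM per kb. The small subunit Atp5mpl had a log2 fold change of 0.12 with a 95% interval from -0.25 to 0.49.

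The c subunit, which forms the rotating ring, is made from 3 genes whose proteins differ in the import sequence that is cut off. Atp5g1 had 50.7, 39.2 and 49.1 CPM in WT and 87.5, 68.3, 71.2 and 58.5 CPM in TET1 KO, a log2 fold change of 0.62 (SE 0.16, adjusted p = 0.066 by edgeR). Atp5g2, expressed at a lower level, had a log2 fold change of 0.57 (SE 0.19, adjusted p = 0.109 by edgeR). The genotypes did not overlap in either. Atp5g3 gave most of the reads, with 409, 357 and 348 CPM in WT and 184, 372, 365 and 386 CPM in TET1 KO, where replicate 1 again stood apart. Its share of the summed CPM of the 3 genes was 87.0%, 88.6% and 85.4% in WT and 64.0%, 81.9%, 81.1% and 84.8% in TET1 KO, without overlap. The sum itself ran from 403 to 470 CPM in WT. In TET1 KO it was 287 CPM in replicate 1 and 451 to 456 CPM in the other 3 livers, within the WT range.

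**Figure D2:**
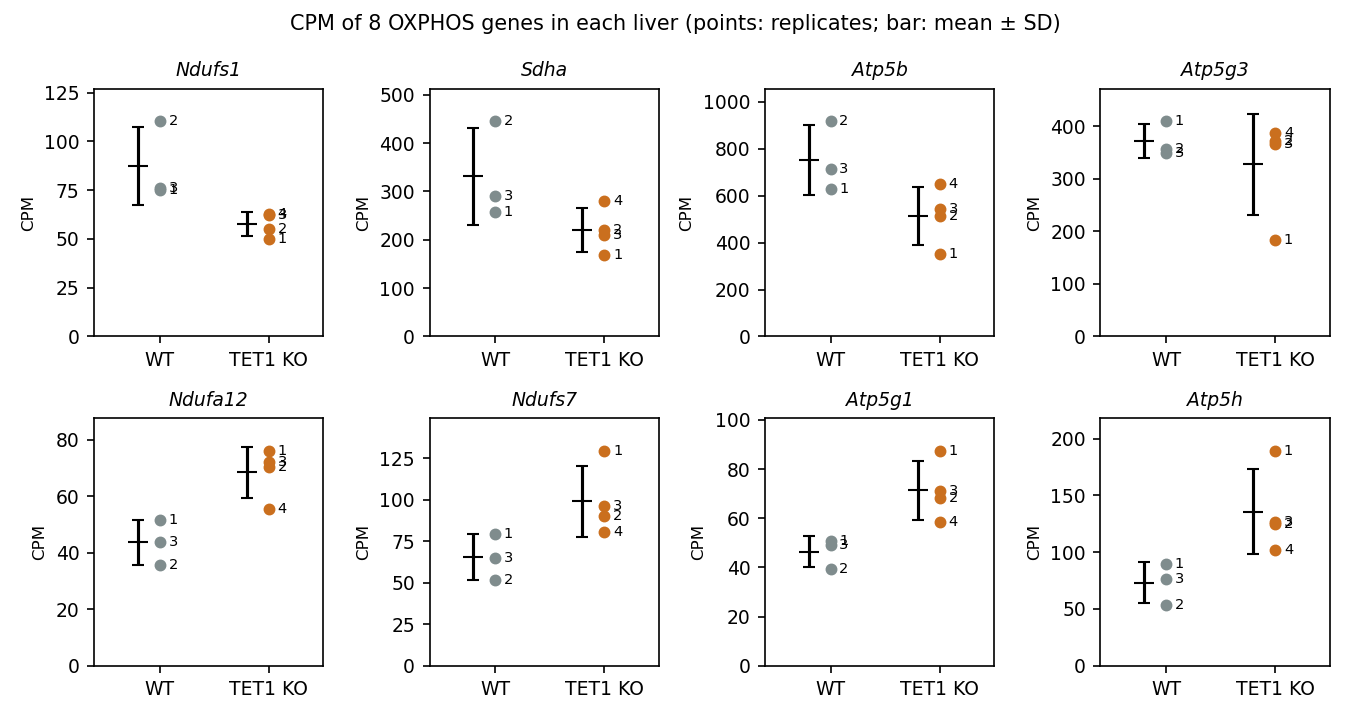
CPM of 8 OXPHOS genes in each liver, with digits giving the replicate number and bars the mean ± SD (WT n = 3, TET1 KO n = 4). TET1 KO replicate 1 was the lowest of the TET1 KO livers for Ndufs1, Sdha, Atp5b and Atp5g3 and the highest for Ndufa12, Ndufs7, Atp5g1 and Atp5h.

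The direction of a member went with the length of its coding sequence, a property taken from GENCODE M1 and looked at after the values were seen. Of the 10 members with a coding sequence over 1200 nucleotides, 9 had a log2 fold change below 0, and their median was -0.32, although Uqcrc1 at -0.03 and Ndufaf7 lay close to 0. Ndufv3 was the exception, at 0.39, or 0.24 without the GC trend. The 42 members of 300 to 600 nucleotides had a median of 0.28, with 36 above 0, the 21 of up to 300 nucleotides one of 0.20, and the 14 of 600 to 1200 nucleotides one of 0.12. All tested genes in the same length classes, from the shortest to the longest, had medians of 0.18, 0.09, -0.03 and -0.01. Across genes, Spearman's rho between coding length and log2 fold change was -0.38 over 87 members and -0.02 over 12504 genes, and genes of 1 library are not independent replicates. GC content of the transcript gave a rho of 0.27 over the members and 0.28 over all genes. The long members include Ndufs1 of the complex I core, Sdha, and Atp5a1 and Atp5b of the F1 head. Length and role therefore cannot be told apart here.

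**Figure D3:**
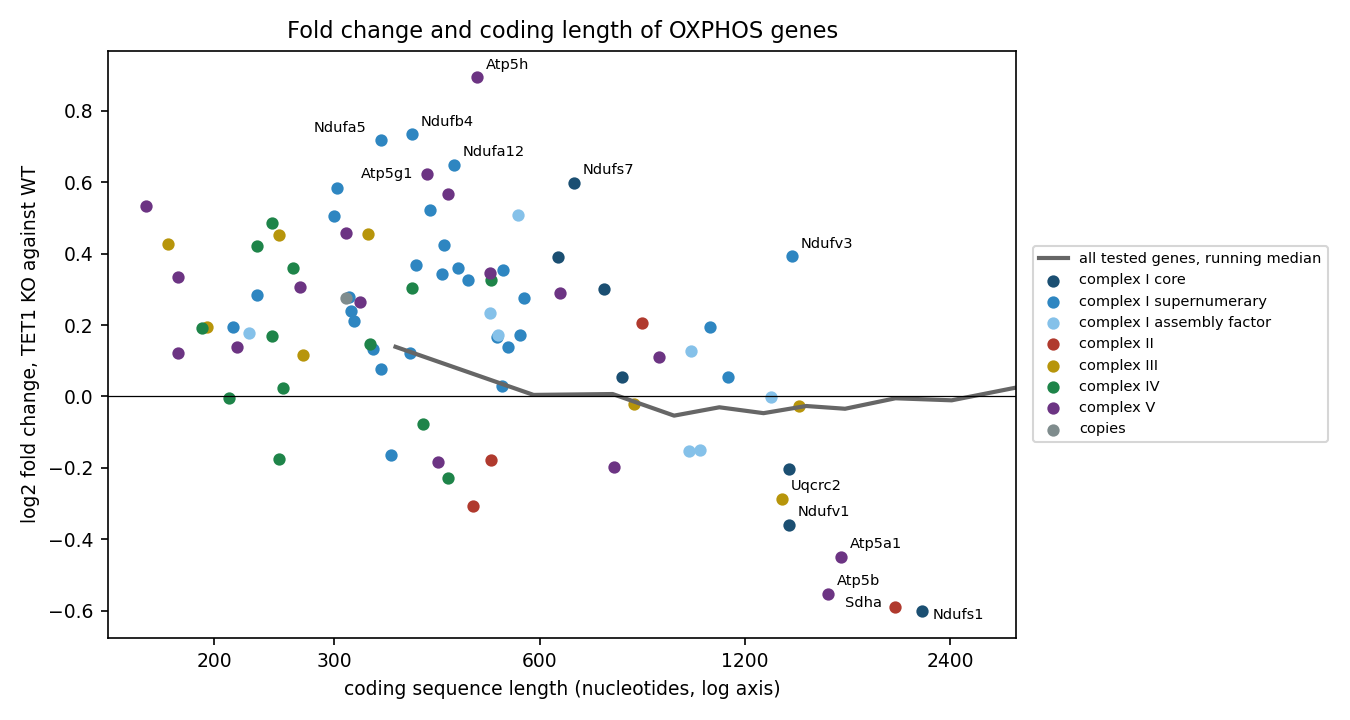
Log2 fold change of TET1 KO against WT (vertical axis) against coding sequence length in nucleotides (horizontal log axis) for the 87 members with a known coding length, coloured by group, with the running median of all tested genes as a grey line. Of the 10 members over 1200 nucleotides, 9 lie below 0, while the grey line stays near 0 there.

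The livers of 1 genotype differed from each other along the same line. As the mean log2 CPM difference from the WT mean, the members over 1200 nucleotides minus those of up to 600 nucleotides stood at -0.30, 0.38 and -0.08 in WT replicates 1 to 3 and at -0.86, -0.50, -0.54 and -0.29 in TET1 KO replicates 1 to 4. WT replicate 1 and TET1 KO replicate 4 thus overlapped, WT replicate 2 stood at the upper end and TET1 KO replicate 1 at the lower. Over all tested genes the same contrast was -0.09, 0.15 and -0.06 in WT and 0.01, -0.17, -0.08 and -0.12 in TET1 KO. The share of each library taken by mitochondrially encoded genes was 9.98%, 7.25% and 9.51% in WT and 14.4%, 10.3%, 10.9% and 8.78% in TET1 KO, lowest in WT replicate 2 and highest in TET1 KO replicate 1, the livers at the upper and lower ends of the length contrast. Its part in the values of the nuclear members was not tested.

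Over all 94 members the mean log2 difference from the WT mean was 0.17, -0.16 and -0.01 in WT and 0.14, 0.19, 0.24 and 0.14 in TET1 KO. WT replicate 1 therefore lay inside the range of the TET1 KO livers. WT replicate 2 had the lowest of the 7 values in 62 members. The SD of the members' differences within a liver was 0.54 in TET1 KO replicate 1, against 0.09 to 0.30 in the other 6. By complex, the mean of the complex I supernumerary subunits overlapped between genotypes, since WT replicate 1 stood at 0.24 and TET1 KO replicate 4 at 0.20. The means of the complex I assembly factors ran from -0.02 to 0.01 in WT and from 0.07 to 0.16 in TET1 KO and did not overlap. Their median log2 fold change of 0.15 fell to 0.05 without WT replicate 3. The means of complex II ran from -0.10 to 0.14 in WT and from -0.47 to 0.02 in TET1 KO. All 94 members together took between 1.21% and 1.40% of the counts in WT and between 1.26% and 1.33% in TET1 KO.

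**Figure D4:**
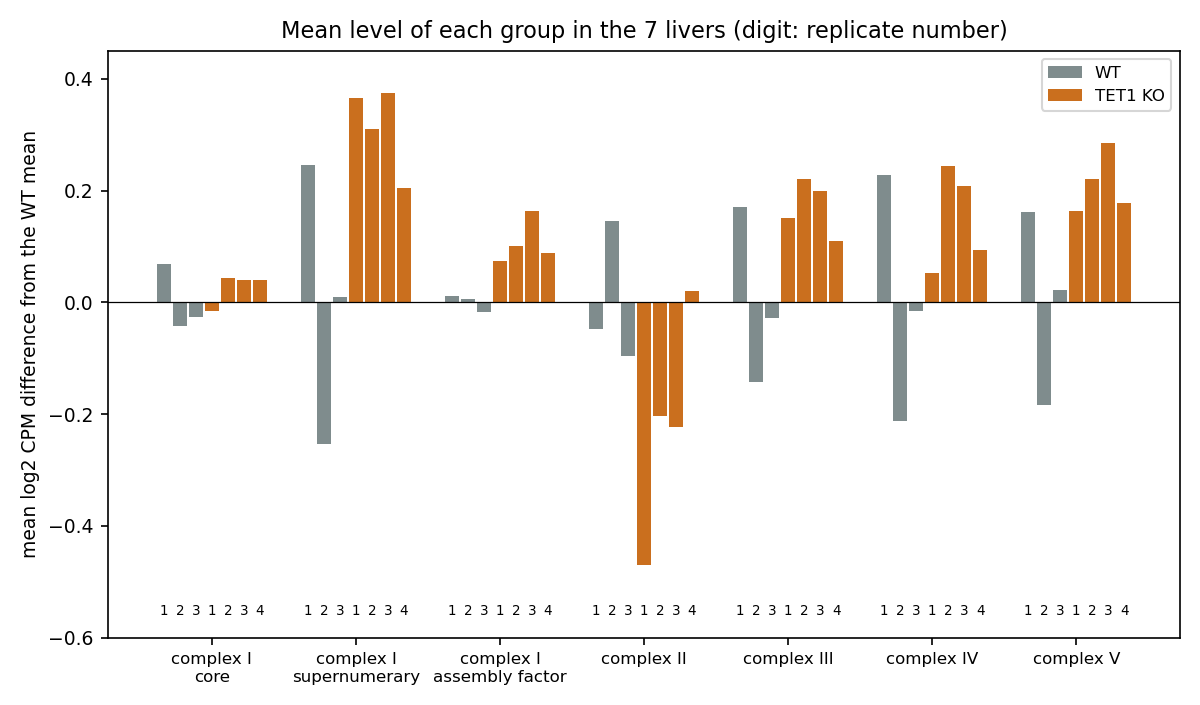
Mean log2 CPM difference from the WT mean (vertical axis) of each group of OXPHOS genes in the 7 livers, grey bars for WT and orange bars for TET1 KO, with digits for the replicate number. WT replicate 2 is the lowest WT liver for the complex I supernumerary subunits (-0.25) and the highest for complex II (0.14), and TET1 KO replicate 1 is the lowest for complex II (-0.47).

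Genes that work beside the members were taken as lists. Of 16 tested genes for mobile electron carriers, among them cytochrome c and coenzyme Q synthesis, edgeR called none, 3 had an unadjusted p under 0.05 (background 26.3%) and 8 had a log2 fold change above 0. DESeq2 called 2, Etfdh (log2 fold change -1.17) and Etfb (0.56), which pass electrons from fatty acid oxidation to ubiquinone (background 9.14%). Cycs, the cytochrome c gene, had a log2 fold change of 0.19 (SE 0.18, adjusted p = 0.508 by edgeR), and from 0.07 without WT replicate 2 to 0.31 without TET1 KO replicate 4. Of 41 tested assembly factors outside the symbol rule, whose median was 0.03, edgeR called none and 9 had an unadjusted p under 0.05 (background 26.3%). DESeq2 called 4 (background 9.14%), Cox20 and Uqcc3 higher and Nubpl and Acad9 lower in TET1 KO. These genes called by DESeq2 alone were named after their values were seen. Of 3 tested proteins listed with the ATP synthase, Dmac2 was called. It was listed for its older name Atp5sl and is known as a factor of complex I assembly. Dmac2 had 39.2, 28.5 and 26.4 CPM in WT and 53.6, 52.1, 55.5 and 49.6 CPM in TET1 KO, a clear separation, with a log2 fold change of 0.75 (SE 0.15, adjusted p = 0.038 by edgeR). That call was lost in 5 of the 7 fits that left out 1 liver, with adjusted p from 0.026 to 0.193.

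Of 14 tested regulators of mitochondrial biogenesis edgeR called none, 3 had an unadjusted p under 0.05 (background 26.3%), DESeq2 called 1 (background 9.14%), and 7 had a log2 fold change above 0. The 1 was Ppargc1b, a coactivator of OXPHOS genes. It had 5.91, 4.6 and 3.81 CPM in WT and 14.6, 8.38, 7.62 and 5.85 CPM in TET1 KO (log2 fold change 0.93, SE 0.30, adjusted p = 0.097 by edgeR and 0.047 by DESeq2). TET1 KO replicate 4 fell just inside the WT range. Over the fits that left out 1 liver, the log2 fold change of Ppargc1b ran from 0.60 to 1.09. Its relative Ppargc1a had a log2 fold change of 0.27 and Esrra, the nuclear receptor both work with, one of 0.27, which was 0.15 without WT replicate 3 and turned to -0.04 without the GC trend. Tfam, which packages and transcribes mitochondrial DNA, had all TET1 KO livers below WT, at 25.8, 26.4, 26.4 and 32.3 CPM against 33.9, 41.9 and 34.1 CPM (log2 fold change -0.40, SE 0.14, adjusted p = 0.113 by edgeR). Gabpa had a log2 fold change of -0.41 (adjusted p = 0.152 by edgeR), Yy1 of -0.14 and Nrf1 of -0.03. Without WT replicate 2 Gabpa stood at -0.25 and Yy1 at -0.07. Of 22 markers of mitochondrial content, such as import and membrane proteins, edgeR and DESeq2 called none and 9 had an unadjusted p under 0.05 (background 26.3%). Their log2 fold changes were above 0 in 9 and below in 13, with a median of -0.08. Of the 3 tested uncoupling genes neither tool called any, and none had an unadjusted p under 0.05.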

How the data were processed

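Liver RNA of 3 WT and 4 TET1 KO mice on an HFD was sequenced, and groups were taken from the sample labels. The authors deposited 1 table of raw read counts per mouse, not normalized. The submitters' processing notes name Trimmomatic 0.36, GSNAP, featureCounts 1.5.3 and GRCm38. The annotation release and the strand setting of the counting are not given in the sources used here, so genes that overlap or share sequence with copies are uncertain. The extraction protocol names poly(A) selection or, alternatively, rRNA depletion, which bears on the mitochondrially encoded share.

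Genes were joined by Ensembl identifier after 5 repeated entries per table were left out. The genotypes were compared with edgeR 4.0.16 in R 4.3.3 (filterByExpr, TMM, quasi-likelihood test, no covariates) over 14754 genes, and calls were made at adjusted p below 0.05 (Benjamini-Hochberg). CPM values are TMM-normalized, log2 CPM used a prior count of 2, and intervals come from the fit. Alternatives were DESeq2 1.42.0, other scalings and filters, robust dispersions, a transcript length trend, the replicate number as a block, and leaving out each liver. A GC trend was added after the data were seen. Livers of 1 genotype differed by at least 27.4 times the chi-square of sampling noise, so none was counted as a duplicate. A gene of no more than 3 counts in a library was taken as at the floor. Depth sets the counting error only.

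The members, lists, roles and motifs were chosen with earlier results of these data known. Genes named are, in each group, the 3 members with the smallest and the 1 with the largest p, up to 4 lower members with the smallest p, the isoform families, the members at the minimum, called list genes, and Cycs with 7 regulators. Others were named after their values were seen. The members with the lowest count that passed the minimum were Uqcrh-ps2 (37 counts) and Cox7a1 (38 counts). Those just under it were Ndufa4l2 (9 counts in WT replicate 2, 28 to 66 in the other livers) and Uqcrh-ps1 (7 to 15 counts). Coding lengths and GC content came from GENCODE M1 and positions and promoters from RefSeq GRCm38.p6. Protein sequences were not used here. Plots used Python 3.11 and matplotlib 3.10.9.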

Additional observations from a re-analysis of the deposited data

Results flagged for a closer look

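In the 4 TET1 KO livers, 78 values were examined for 1 liver far from the others, by the gap to its nearest neighbour as a share of the whole range, against Dixon's critical value. Chance alone passes about 1 in 20 of such groups, but some of these values were included because 1 liver was already seen to stand apart, so the number that passed is not to be read against that share. TET1 KO replicate 1 stood low for Atp5g3 (gap share 0.897), Ndufa4 (0.836), Cox7a2 (0.920) and the mean of the complex I core subunits (0.937). TET1 KO replicate 2 stood high for Cox8b (0.942), Ucp1 (1.0), Adipoq (1.0), Plin1 (0.986) and the summed white adipocyte markers (0.979), and low for Rgs5 (0.898). TET1 KO replicate 4 stood low for Uqcrq (0.831) and high for Tfam (0.901). The Cox8b, Ucp1, Adipoq and Plin1 values are raw counts, and several of these genes mark the same cells, so the values are not independent of each other.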

How the results depend on the processing

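No OXPHOS gene was called under RLE size factors, library size only, scaling without mitochondrially encoded genes, robust dispersions, a minimum of 10 counts per library or removal of a length or GC trend. DESeq2 called 5 (4 higher), among 1332 of 14577 genes. No filter on low counts gave 1, among 592 of 24623 genes. An adjusted p of 0.1 gave 8, among 1666 of 14754 genes. Leaving out a liver gave 0 to 3 members and 38 to 891 genes in all, lowest without WT replicate 2 and highest without TET1 KO replicate 4, and 187, 104 and 79 genes without TET1 KO replicates 1, 2 and 3. Replicate numbers did not pair the samples (correlations of deviations 0.21, -0.12 and -0.10). With the number as a replicate block, 9 of 94 members (8 higher) and 1326 of 14754 genes were called. Replicate 4 exists only in TET1 KO, so its block takes up that liver and the genotype difference rests on replicates 1 to 3. DESeq2 called Ndufs1, Ndufa12, Ndufa5, Atp5h and Atp5g1, the lack of a filter Atp5h, and the fit without TET1 KO replicate 4 Ndufa12, Atp5h and Atp5g1. The causes were not tested.

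The members' median log2 fold change was 0.10 with library size only and 0.10 without the length trend, and 0.10 to 0.32 over the fits without 1 liver (WT replicates 2 and 1). Members above 0 numbered 67 to 76 in those fits, 64 with library size only and 61 without the length trend, and 9 of the 10 long members below 0 became 7 without TET1 KO replicate 1. With library size only the medians were -0.038 (complex I core), 0.19 (supernumerary), 0.057 (assembly factors), 0.064 (complex III), 0.076 (complex IV) and 0.20 (complex V). Without the length trend they were -0.010 (core), 0.074 (assembly factors), -0.0020 (complex III) and 0.18 (complex V), and without the GC trend -0.038 (core), 0.11 (assembly factors), 0.092 (complex III) and 0.20 (complex V). Leaving out a liver gave 0.019 to 0.089 (core), 0.17 to 0.42 (supernumerary), 0.049 to 0.18 (assembly factors), 0.085 to 0.21 (complex III), 0.020 to 0.34 (complex IV) and 0.18 to 0.40 (complex V). The median of complex II was -0.35 to -0.13 in those fits (without TET1 KO replicates 4 and 1), -0.34 with library size only and -0.36 with the replicate block, and that of complex IV was 0.099 without the length trend.

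The genes named by rule, without those named after their values were seen, gave 799 values under the alternatives. Of these, 731 kept their direction and their side of the threshold, 35 changed sign, 19 passed the threshold and 14 no longer did. With library size only the sign changes were in Ndufs3 (-0.038), Ndufs4 (-0.062) and Cox7a2 (-0.069), without the length trend Ndufs3 (-0.010), Atp5mpl (-0.070) and Cox7a2 (-0.078), and without the GC trend Ndufs3 (-0.038), Ndufaf7 (0.073), Uqcrfs1 (0.012), Cox6a1 (-0.070) and Esrra (-0.037). With the replicate block they were Uqcrfs1 (0.0083), Cox8a (0.012) and Cox7a2 (-0.0039), and with no filter Cox7a2 (-0.00044). Without 1 liver they ranged over -0.044 to 0.10 (Ndufs4), -0.11 to 0.12 (Ndufaf7), -0.072 to 0.040 (Uqcrfs1), -0.12 to 0.12 (Cox8a), -0.033 to 0.24 (Atp5mpl), -0.27 to 0.013 (Atp5g3), -0.28 to 0.026 (Ndufa4), -0.18 to 0.032 (Cox7a2l), -0.069 to 0.11 (Cox7a2) and -0.17 to 0.045 (Nrf1). The Rgs5 call was lost in 6 of the 7 such fits, the replicate block (adjusted p = 0.055) and the fit without the GC trend (adjusted p = 0.067), and Dmac2 with library size only (adjusted p = 0.051).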
